A study of Schizosaccharomyces pombe with 88 samples.

Results

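Wild-type fission yeast held in hydroxyurea (HU) was compared here with wild-type cells passing through S phase without the drug. The wild-type arrays of the HU arm at 160 and 200 min (4 arrays) were set against the untreated wild-type arrays at 120 min (2 arrays), 6 of the 88 arrays of the series. The 88 arrays cover 44 conditions of 4 strains, labelled WT, rad3, cds1 and chk1, each with 2 array repeats. Cells were synchronised by elutriation, released into early G2 and sampled from 0 to 200 min without drug or with 8 mM HU. The comparison uses WT in 8 mM HU at 160 min, WT in 8 mM HU at 200 min, and WT without HU at 120 min, all from elutriated cells, with times counted from release. The labels give no further genotype, no cell age and no second culture of any condition, and the series text calls the 2 arrays of a condition technical repeats. Each condition therefore counted as 1 sample. The p-values rest on the spread of other start and untreated conditions of all strains around strain and time terms. They do not measure a spread between cultures of the conditions compared, and the spread used may be technical. Each value is the log2 ratio of the sample over a common reference of asynchronous untreated wild-type cells from a culture in mid-log growth.

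HU inhibits ribonucleotide reductase, so deoxynucleotides run short and replication forks slow or stall. In fission yeast the sensor kinase Rad3 and its effector kinase Cds1 respond to stalled forks, hold back mitosis and keep the transcription factor MBF active. MBF drives the wave of genes needed for S phase, histone genes are transcribed while DNA is made, and genes for the septum and for cell separation are transcribed late in mitosis, shortly before the daughter cells part. A level during the arrest can thus equal that of a normal S phase, exceed it, or fall below it, and the untreated 120 min value serves here as the normal S phase level.

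Some arrays stood apart from their labels. The arrays labelled chk1, untreated at 120 min, correlated with the WT arrays of that condition at r = 0.926 (repeat 1) and 1.00 (repeat 2) over probes, and the repeat 2 arrays differed by an SD of 0.00595 around an offset of -0.121. The arrays labelled chk1 with HU at 200 min (r = 0.976 and 1.00) and at 120 min (r = 0.941 and 1.00) matched the WT arrays in the same way. Those with HU at 160 min did not (r = 0.708 and 0.667). Which label belongs to the matching values cannot be told apart, so they entered only as WT, and results are given below for the 160 min arrays alone and with matching arrays averaged in. No value without the untreated 120 min arrays exists except against another time. The 2 repeats of a condition correlated at 0.732 (untreated 120 min), 0.736 (HU 160 min) and 0.865 (HU 200 min) over probes. The rad3 gene read between -2.81 and -2.45 in the 11 conditions of the rad3 strain and at least -1.0 in every condition of the other strains, and the cds1 gene read between -3.22 and -2.7 in the cds1 strain and at least -0.44 elsewhere. The chk1 gene did not fully separate its strain: it read -1.55 to -0.42 under the label chk1 and -0.83 to 0.16 under WT. Under the label chk1 only HU 120 min (-0.42) and HU 160 min (-0.53) read above the lowest WT value. All other conditions of that label read -0.94 or less. The WT conditions compared here had the 3 lowest of the 11 WT values (-0.74 at untreated 120 min, -0.83 at HU 160 min and -0.79 at HU 200 min, the others from -0.50).

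The untreated 120 min sample carried the marks of S phase together with those of cell separation. The mean of the 9 core histone genes was 1.68 there, the highest of the 6 start and untreated WT conditions, against -0.82 at 80 min and -0.34 at 160 min. The glucanase genes eng1 and agn1, whose products dissolve the septum, and the gene adg1 were also at their untreated maximum at 120 min (1.23 for eng1). Among the G1/S genes, cdc18 was highest at 80 min (1.37) and at 0.79 at 120 min. In fission yeast cells S phase follows mitosis so closely that it overlaps septation, so both sets of markers can stand high together. Low separation genes under HU are read against a reference in which they stood high.

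Of 5014 genes tested, 191 were higher and 235 lower in the arrest than at untreated 120 min (limma on condition means, adjusted p under 0.05 after Benjamini-Hochberg adjustment over all genes). This is 8.5% of the genes, 3.81% higher and 4.69% lower. Another 4123 genes (82.2%) were not called and had the whole 95% interval of the difference within 1 log2 unit of 0. These are said to hold the S phase level here and below. Held genes can still differ by less than 1 log2 unit, and some of their intervals exclude 0. The other 465 were unresolved. The median difference over all genes was 0.004 on the log2 scale. At an unadjusted p under 0.05 the count was 1309. With each array as a sample and the repeat number as a replicate block, 1825 genes were called instead of 426. Of these 901 were higher and 924 lower. The block treats technical repeats as samples, so block counts here and below are set against array error only. They say nothing of a spread between cultures.

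Taken one at a time, HU 160 min differed from untreated 120 min at 131 genes (2.61%), 49 higher (0.977%) and 82 lower (1.64%), and HU 200 min at 444 genes (8.86%), 186 higher (3.71%) and 258 lower (5.15%). These comparisons share the untreated arrays. Within the same fit, HU at 160 and 200 min was also set against untreated WT at 160 and 200 min, which had left S phase. That comparison called 490 genes (9.77%), 225 higher (4.49%) and 265 lower (5.29%), and shares the HU arrays with the first. It is used below beside the first comparison. A gene far above the late untreated cells and level with the 120 min cells was at its S phase level in the arrest. A gene above both went past it.

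**Figure D1:**
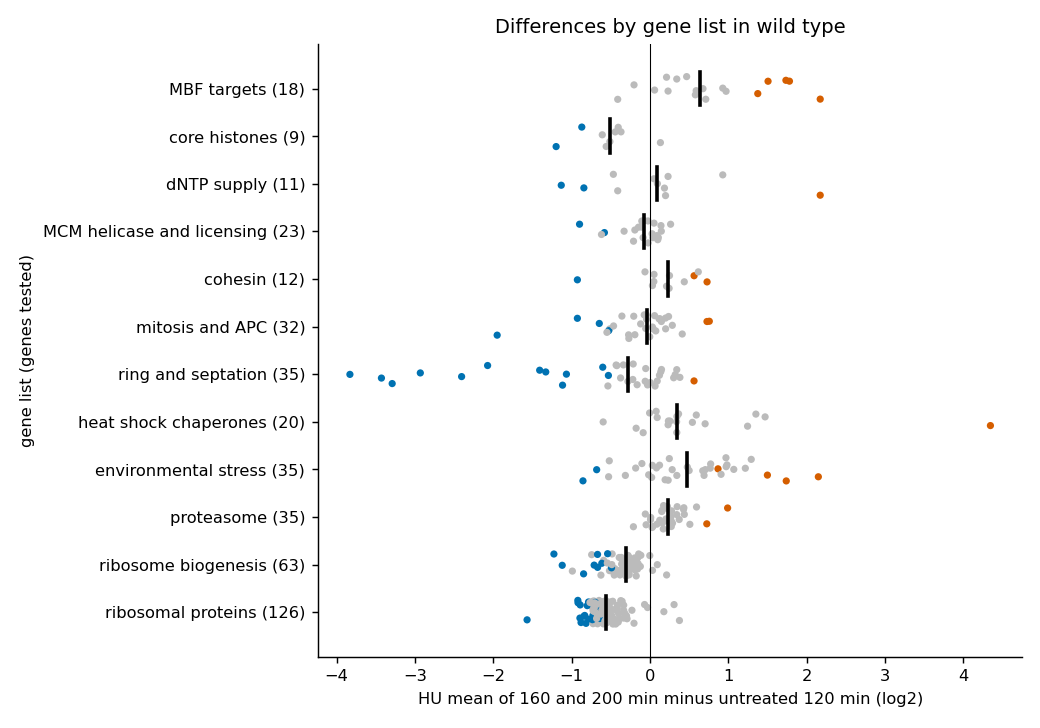
Differences (log2, x axis) between the HU arrest in wild type and untreated 120 min, for each gene of 12 lists. Each point is a gene, orange where it was called higher, blue where it was called lower and grey otherwise, and the black bar is the median of the list. The MBF targets have their median at 0.63, the ring and septation list reaches -3.83, and the ribosomal proteins lie almost wholly below 0.

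Some targets of MBF, the G1/S transcription factor, went past their S phase level. Of 18 measured targets, 5 were higher and 0 lower, against 3.81% higher over all genes, while 5 held and 8 were unresolved. After quantile normalization 1 was higher, cdt2, with a list median of 0.37. With a replicate block 12 were higher and 1 lower, against 901 and 924 of all genes. Their median difference was 0.63, against 0.004 over all genes. Both HU values lay above all 6 start and untreated WT values for 14 of the 18, which was so for 9.95% of all genes. Against untreated cells of the same clock time 15 of 18 were higher (4.49% of all genes), with a median of 2.29. The mean of the list was 0.52 at untreated 120 min, and under HU it was 1.27 at 120 min, 1.26 at 160 min and 1.31 at 200 min. The list mean was thus already above that of S phase at 120 min of HU. The WT arrays at 120 min, with and without HU, both match arrays labelled chk1. A larger share of cells in a stage and more RNA per cell cannot be told apart in these bulk samples.

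The largest of these differences was at cdt2, which encodes the substrate adaptor of the ubiquitin ligase that removes the reductase inhibitor Spd1 and the licensing factor Cdt1. The cdt2 values were -0.02 and 0.01 on the untreated arrays, 2.21 and 2.05 at 160 min of HU, and 2.15 and 2.25 at 200 min. All 4 HU arrays were far above both untreated arrays. The difference was 2.17 ± 0.33 (SE, 2 HU conditions against 1 untreated condition, limma adjusted p = 0.0014), and it was called under all 14 alternatives.

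Next came cdc18, whose product loads the replicative helicase at origins together with Cdt1. It read 0.87 and 0.72 untreated, 2.37 and 2.94 at 160 min of HU, and 2.58 and 2.41 at 200 min. The HU and untreated arrays did not overlap, and the difference was 1.78 ± 0.43 (SE, limma adjusted p = 0.02). Its partner cdt1 read 0.20 and 0.54 untreated and between 1.41 and 2.21 on the HU arrays, a difference of 1.38 ± 0.37 (SE, limma adjusted p = 0.033). Both licensing genes had their highest untreated level at 80 min, and against that time the differences were smaller and not called (1.20 for cdc18 and 0.47 for cdt1).

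The other called targets were ste6 and ams2. ste6 encodes an exchange factor for Ras in the mating pathway. It read 0.21 and -0.50 untreated, 1.95 and 0.81 at 160 min of HU, and 1.70 and 1.92 at 200 min. The groups did not overlap, although the 160 min repeats lay apart, and the difference was 1.74 ± 0.33 (SE, limma adjusted p = 0.0064). ams2, which encodes the GATA-type activator of histone genes, read 0.50 and 0.76 untreated, 1.99 and 2.49 at 160 min, and 1.82 and 2.24 at 200 min. Its difference was 1.51 ± 0.29 (SE, limma adjusted p = 0.0066), with no overlap between the groups.

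A second set of targets was high in the arrest without a call against S phase. cdc22, the large subunit of ribonucleotide reductase and so of the enzyme that HU inhibits, read 1.06 and 1.45 untreated, 1.83 and 2.32 at 160 min, and 2.16 and 2.43 at 200 min. Every HU array was above both untreated arrays, but the 95% interval of the difference of 0.93 ran from -0.35 to 2.21, so the data do not settle whether cdc22 went past its S phase level. Against the late untreated cells the same HU arrays stood 3.80 higher (limma adjusted p = 0.00018). The G1/S cyclin gene cig2 (difference 0.97, limma adjusted p = 0.11), the Cdc2-inhibiting kinase gene mik1 (0.71), tos4 (0.68), the resection gene ctp1 (0.59), the MBF co-repressor gene nrm1 (0.58) and the checkpoint mediator gene mrc1 (0.47) had the same form. Each of these 6 was called higher against late untreated cells, by between 1.23 (nrm1) and 3.21 (tos4).

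The remaining targets held the S phase level or were unresolved. suc22, the small subunit of the reductase, differed by 0.23 (95% interval -0.17 to 0.63). ssb1, the large subunit of the single-strand binding complex, differed by 0.34, and rad21, pol1 and msh6 by between -0.20 and 0.21. dut1, the dUTPase gene, was the most negative at -0.41, with an interval from -1.49 to 0.67, while it stood 2.41 above late untreated cells. The genes of MBF itself were not called: cdc10, res1, res2, rep1 and rep2 all held, with differences between -0.13 and 0.36.

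**Figure D2:**
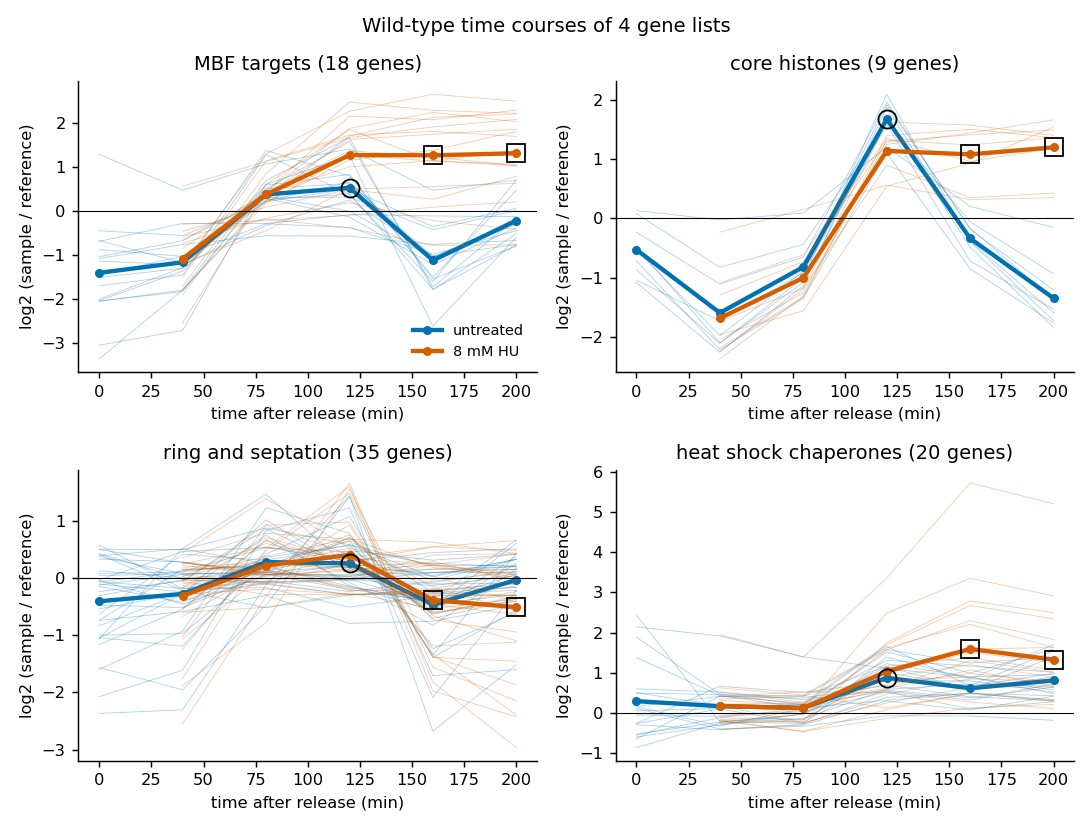
Mean log2 ratio (y axis) of 4 gene lists over time after release (x axis, min) in wild type, untreated (blue) and in 8 mM HU (orange). Thin lines are genes, thick lines list means, the black circle is untreated 120 min, and the black squares are HU 160 and 200 min. The MBF targets level off at 1.26 to 1.31 under HU against 0.52 at untreated 120 min, whereas the core histones stay at 1.08 to 1.20, under their untreated peak of 1.68.

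The core histones were high in the arrest, yet not above S phase. Of the 9 genes 0 were higher and 2 lower than at untreated 120 min (4.69% of all genes were lower), with a median of -0.51. None had both HU values above all untreated values. Against late untreated cells 8 of 9 were higher, with a median of 2.33. The gene hta1, for histone H2A, read 1.68 and 2.17 untreated, 0.93 and 1.96 at 160 min of HU, and 1.43 and 1.91 at 200 min. The groups overlap, and the difference was -0.37 with a 95% interval from -1.17 to 0.43. htb1, the only H2B gene, differed by 0.13 (-0.65 to 0.92) and was the single histone gene that held by the stated limit.

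The 2 lower genes encode histones H3 and H4. hhf2 (H4) read 1.62 and 1.55 untreated, 0.41 and 0.29 at 160 min, and 0.45 and 0.41 at 200 min. All HU arrays were more than 1 log2 unit below the untreated arrays, and the difference was -1.20 ± 0.34 (SE, limma adjusted p = 0.041). hht2 (H3) read 0.96 and 1.45 untreated and between 0.17 and 0.47 on the HU arrays, a difference of -0.87 ± 0.15 (SE, limma adjusted p = 0.004). The other H3 and H4 genes had differences between -0.61 and -0.44 and none was called. Both calls were lost against untreated 80 min, where the values were 1.31 for hhf2 and 0.24 for hht2. The call of hhf2 was also lost without replicate 1, after quantile normalization, without the 0 min conditions and with one probe per gene, and that of hht2 with arrays as samples and no block. With the repeat number as a replicate block 8 of 9 histone genes were lower, against 924 of all genes. Copies of a histone gene are nearly identical, and how far their probes measure each copy alone was not tested.

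**Figure D3:**
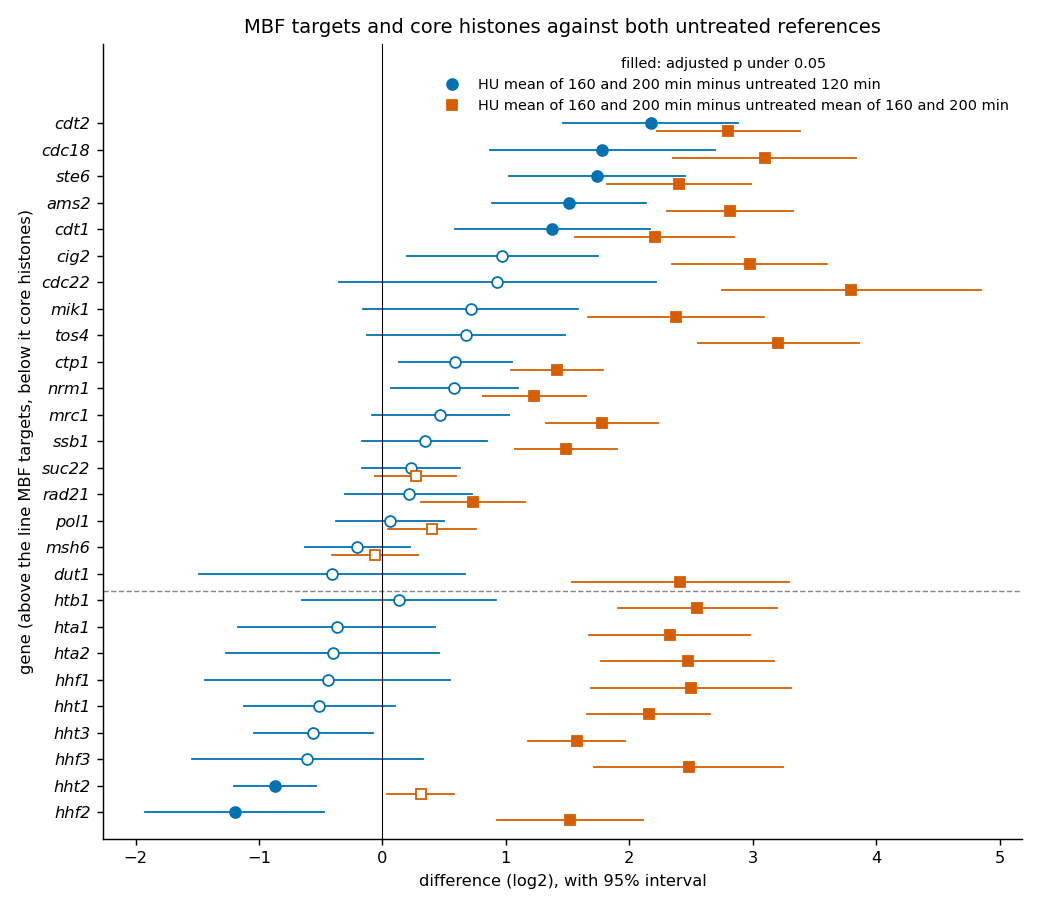
Differences (log2, x axis, with 95% interval) of HU 160 and 200 min in wild type, for the 18 MBF targets and 9 core histones. Blue circles are against untreated 120 min and orange squares against untreated 160 and 200 min, filled where the adjusted p was under 0.05. The histones lie near or below 0 against the S phase reference and at 1.5 or more against the late reference except hht2, and 5 MBF targets are filled against both.

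Genes for the supply of deoxynucleotides were called in both directions. In the list of 11, 1 was higher (cdt2, above) and 2 were lower, against 3.81% and 4.69% of all genes. spd1, the inhibitor of ribonucleotide reductase, read 0.04 and 0.43 untreated, -0.53 on both arrays at 160 min, and -0.83 and -0.54 at 200 min. It was 0.84 lower on the log2 scale, a difference of -0.84 ± 0.19 (SE, limma adjusted p = 0.013), although against untreated 80 min it was 0.14. dfr1, dihydrofolate reductase, read 0.54 and 0.68 untreated and between -0.78 and -0.10 under HU, a difference of -1.13 ± 0.17 (SE, limma adjusted p = 0.0011). Its 2 probes gave -2.14 and -0.12, so the size rests on 1 of them.

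In the list of MCM helicase and licensing genes 20 of 23 held (82.2% of all genes) and 2 were lower (4.69%), with a median of -0.07. mcm3, a subunit of the helicase, read -0.22 and 0.10 untreated, -1.06 and -1.14 at 160 min of HU, and -0.78 and -0.86 at 200 min. Both HU values lay below every untreated WT value. The difference was -0.90 ± 0.13 (SE, limma adjusted p = 0.0011), while mcm2 differed by 0.09 and mcm5 by -0.33, both held. dfp1, the regulatory subunit of the origin-firing kinase Hsk1, was lower by a smaller amount (-0.58, limma adjusted p = 0.026).

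Among replicative polymerases and the clamp, 20 of 24 held, 1 was higher and 3 lower, against 82.2%, 3.81% and 4.69% of all genes. None was lower without replicate 1 (0 of 24) or after quantile normalization (0 of 24). The higher one was top2, DNA topoisomerase II, at 0.64 (limma adjusted p = 0.017). The lower ones were cdm1 (-1.55) and cdc1 (-0.61), both subunits of polymerase delta, and spb70 (-0.68), a subunit of polymerase alpha. cdm1 had its highest untreated level at 120 min and was level with late untreated cells (0.10). None of the 15 checkpoint genes was called, against 8.5% of all genes. rad3 read -0.94 and -0.84 untreated and between -0.68 and -0.31 under HU, a difference of 0.46 that held (limma adjusted p = 0.18).

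Cohesin genes encode the ring that ties sister chromatids together. Of 12 genes 2 were higher and 1 lower, against 3.81% and 4.69% of all genes, with a median of 0.23, and 6 of 12 lay above all untreated values (9.95% of all genes). The core subunit psm1 read -0.06 and -0.09 untreated, 0.81 and 0.43 at 160 min of HU, and 0.70 and 0.69 at 200 min. Its difference was 0.73 ± 0.16 (SE, limma adjusted p = 0.012). psc3 was 0.56 higher (limma adjusted p = 0.014), and psm3 was 0.62 higher without a call (limma adjusted p = 0.076). The lower member was cut1, separase, the protease that opens cohesin at anaphase, at -0.93 ± 0.14 (SE, limma adjusted p = 0.0014), and both its HU values were below every start and untreated value, as for 8.98% of all genes.

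The genes of repair held for the most part, with a pair of exceptions among DNA polymerases. rev1 encodes a translesion polymerase, which inserts a base opposite damaged template. It read -0.83 and -1.56 untreated, 1.36 and 1.24 at 160 min of HU, and 1.03 and 1.53 at 200 min. The untreated arrays were below the reference and the HU arrays all above it. The difference of 2.49 ± 0.18 (SE) had a limma adjusted p of 2.1e-06, and it was called under all 14 alternatives, with values from 1.37 against untreated 80 min to 2.97 with one probe per gene.

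kpa1, the gene of translesion polymerase kappa, read 0.53 and 0.77 untreated, 2.14 and 2.45 at 160 min, and 2.19 and 2.42 at 200 min. Its difference was 1.65 ± 0.20 (SE, limma adjusted p = 0.00028), also called under all 14 alternatives. For both genes the HU values exceeded every untreated WT value. The other translesion genes in the list, rev3 (0.05) and eso1 (0.25), held. In the list of 26 other repair genes 1 was higher (rev1) and 1 lower, near the 3.81% and 4.69% of all genes. The lower one was rad16, a repair nuclease subunit, at -0.81 (limma adjusted p = 0.01). In the recombination list 1 of 21 was higher, also near the 3.81% of all genes. It was rad54, a chromatin-remodelling translocase of recombination, at 0.76, and its limma adjusted p of 0.05 lay at the threshold.

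Genes of septation and cell separation were among the lowest single genes of the comparison, with adg1, eng1 and adg3 the 3 lowest. Of 35 ring and septation genes 12 were lower and 1 higher, against 4.69% lower and 3.81% higher over all genes, with a median of -0.28. With a replicate block the counts were 17 and 5, against 924 lower and 901 higher of all genes. The list mean was 0.26 at untreated 120 min, still 0.41 at 120 min of HU, and then -0.39 at 160 min and -0.51 at 200 min. Against late untreated cells only 3 of 35 were lower (5.29% of all genes) and 0 higher.

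adg1 read 1.09 and 1.78 untreated, -2.18 and -1.46 at 160 min of HU, and -2.83 and -3.10 at 200 min. The HU arrays lay at least 2.5 log2 units below both untreated arrays, and the difference was -3.83 ± 0.70 (SE, limma adjusted p = 0.0046). eng1, the endoglucanase of the primary septum, read 1.18 and 1.27 untreated and between -2.52 and -1.91 under HU, a difference of -3.43 ± 0.50 (SE, limma adjusted p = 0.0011). The genes adg3 (-3.29) and adg2 (-2.93), the exoglucanase gene exg1 (-2.40) and agn1 (-2.07), an alpha-glucanase gene, had the same form. Also among the 12 lowest genes, but outside the list, were SPCC306.11 (-3.02), cts2 (-2.34) and uds1 (-2.10). SPCC306.11, without a name in the tables used, read 0.56 and 0.89 untreated and between -2.47 and -2.11 under HU.

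These differences combine a high reference and a low arrest. Against late untreated cells adg1 differed by -0.30 and eng1 by -1.05, neither called, and at untreated 160 min eng1 itself read -2.09. The HU values of adg1, eng1 and adg3 lay inside the untreated range, and those of adg2 and agn1 below all of it. Further lower genes included cfh4 (-1.41), the glucanosyltransferase gene gas1 (-1.33), the anillin-related mid2 (-1.07), etd1 (-0.60) and the glucan synthase gene bgs4 (-0.53). The higher member was spg1 (0.56), the GTPase at the head of the septation network. Contractile ring components such as cdc15 (-0.38) and imp2 (-0.05) held.

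**Figure D4:**
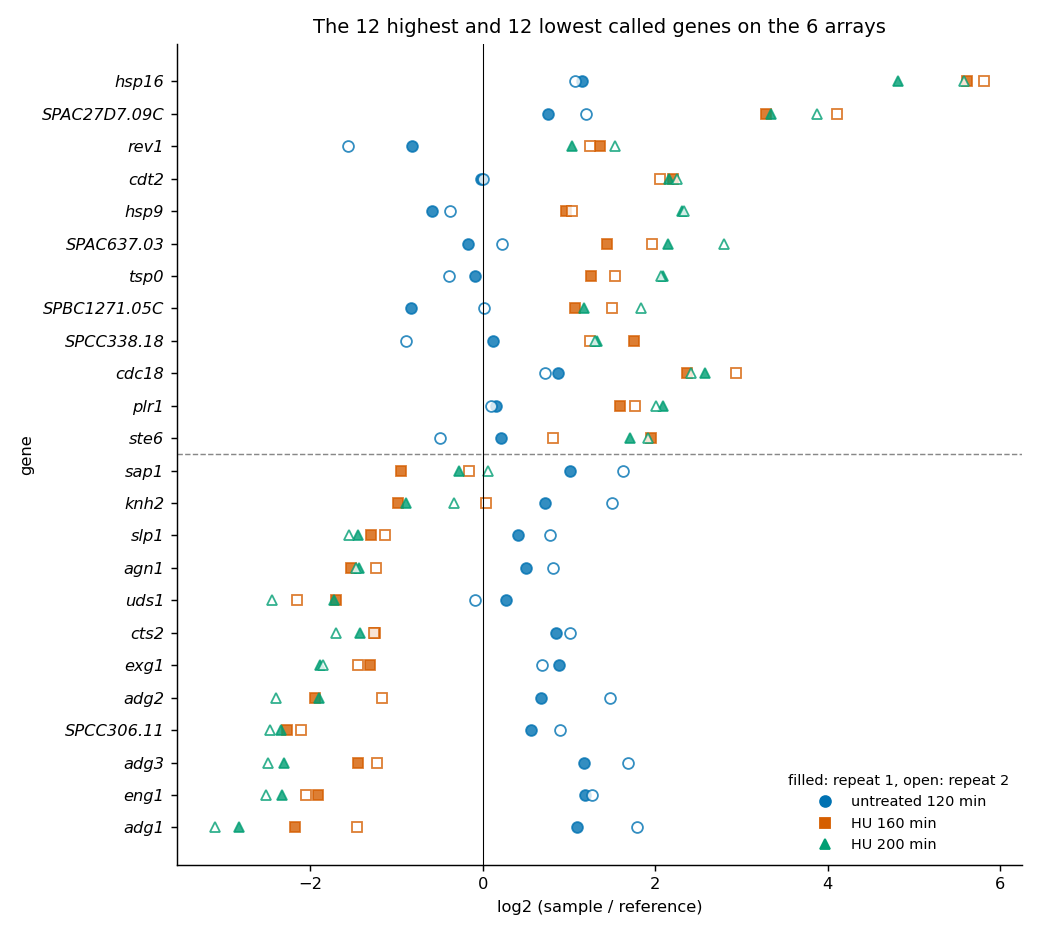
Log2 ratios (x axis) of the 12 highest and 12 lowest called genes (y axis) on each of the 6 arrays. Circles are untreated 120 min, squares HU 160 min and triangles HU 200 min, filled for repeat 1 and open for repeat 2. The genes were picked by their differences on these arrays. The HU and untreated arrays are separate in all 24, as in 364 of the 403 called genes with 1 name. The lower genes run down to adg1 at -3.10 on 1 array of 200 min.

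In the mitosis list 4 of 32 genes were lower and 2 higher, against 4.69% and 3.81% of all genes. slp1, the activator of the anaphase-promoting complex, read 0.41 and 0.77 untreated, -1.30 and -1.13 at 160 min of HU, and -1.45 and -1.56 at 200 min, with no overlap. Its difference was -1.95 ± 0.35 (SE, limma adjusted p = 0.004), and it was also lower than in late untreated cells (-1.54). cut1, described above, the kinesin gene klp5 (-0.65) and the spindle checkpoint gene mad1 (-0.53) were the other lower ones. cdc25, the phosphatase that starts mitosis, was higher at 0.76 ± 0.17 (SE, limma adjusted p = 0.013), as was the Aurora kinase gene ark1 at 0.73 ± 0.19 (SE, limma adjusted p = 0.03). Both of these peaked at 80 min in untreated cells, and against that time the values were -0.45 and -0.40, neither called. The call of ark1 was also lost without replicate 1 and after quantile normalization, and that of cdc25 without replicate 2. plo1, the Polo kinase gene, differed by -0.003 and held.

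Of the 12 highest genes, cdt2, cdc18 and ste6 are MBF targets, and hsp16, hsp9 and plr1 belong to the stress lists. hsp16, a small heat shock protein, read 1.15 and 1.07 untreated, 5.62 and 5.81 at 160 min of HU, and 4.82 and 5.58 at 200 min. Its HU arrays stood far above the untreated ones: the difference was 4.35 ± 0.99 (SE, limma adjusted p = 0.016), and its HU values lay above all untreated values, the highest of which was 2.14 at 0 min. Of 20 heat shock chaperone genes hsp16 was the only one called higher, and 0 were lower, against 3.81% and 4.69% of all genes. Yet the HU values of 14 of 20 lay above all untreated values, against 9.95% of all genes, and the median was 0.34.

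The disaggregase gene hsp104 read 1.83 and 1.49 untreated and between 2.90 and 3.43 under HU. Its arrays did not overlap, but the 95% interval of the difference of 1.47 ran from -0.11 to 3.05. hsp78, its mitochondrial counterpart, differed by 1.35 and the Hsp40 gene psi1 by 1.25, neither called. The interval reflects the spread that these genes show among untreated conditions, and 11 of the 20 were unresolved. With a replicate block 11 of the 20 were higher and 1 lower, against 901 and 924 of all genes. With the 0 min conditions left out 4 were higher and 0 lower, against 293 and 322 of all genes. After quantile normalization 1 was higher and 0 lower. The constitutive genes hsp90 (-0.18), ssa2 (-0.09) and bip1 (0.09) were near their S phase level.

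Environmental stress genes, the common response to many stresses run by the MAP kinase Sty1, were higher in part. Of 35 genes 4 were higher and 2 lower, against 3.81% and 4.69% of all genes, with a median of 0.48. With a replicate block 19 were higher and 5 lower, against 901 and 924 of all genes. With the 0 min conditions left out 8 were higher and 4 lower, against 293 and 322 of all genes. After quantile normalization 1 was higher and 1 lower, and hsp9 and plr1 were not called. hsp9 read -0.59 and -0.39 untreated, 0.96 and 1.04 at 160 min of HU, and 2.31 and 2.34 at 200 min. Its difference was 2.15 ± 0.52 (SE, limma adjusted p = 0.021). It was called at 200 min alone (2.81) and not at 160 min alone (1.49). The pyridoxal reductase gene plr1 (1.74), the neutral trehalase gene ntp1 (1.50) and the glycerol-3-phosphate dehydrogenase gene gpd1 (0.87) were the other higher ones. The lower genes were atf1 (-0.86), the transcription factor of the pathway, and wis1 (-0.68), the kinase that activates Sty1.

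These stress levels were below those right after elutriation. Their list mean was 2.07 at 0 min, -0.001 at untreated 120 min, 0.31 at 160 min of HU and 0.64 at 200 min. hsp9 had its highest untreated value at 0 min (4.37), as did 7 of the 12 highest genes. SPAC637.03, a gene without a name in the tables used, read -0.17 and 0.22 untreated and between 1.44 and 2.80 under HU, while its 0 min value was 5.72. Only 3 of the 35 stress genes had both HU values above all 6 start and untreated values, and 13 of 35 lay above the 5 untreated values without 0 min (17.8% of all genes).

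Other high genes without a name in these tables were SPAC27D7.09C, SPBC1271.05C and SPCC338.18. SPAC27D7.09C read 0.76 and 1.20 untreated, 3.29 and 4.11 at 160 min of HU, and 3.35 and 3.87 at 200 min. Its arrays did not overlap, its HU values were above the highest untreated value of 2.99 at 0 min, and the difference was 2.68 ± 0.58 (SE, limma adjusted p = 0.012). SPBC1271.05C differed by 1.80 ± 0.24 (SE, limma adjusted p = 0.00058). The call of SPCC338.18 was kept under 10 of 14 alternatives, with differences from 1.415 to 2.167.

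The proteasome genes shifted by little and nearly all in the same direction. Of 35 genes 2 were higher and 0 lower, against 3.81% and 4.69% of all genes. A positive difference was seen in 32, against 2529 of 5014 genes tested, and the median was 0.23. Both HU values exceeded all 6 start and untreated values in 19 of 35, against 9.95% of all genes. ubi4, the polyubiquitin gene, differed by 0.99 ± 0.20 (SE, limma adjusted p = 0.008) and pre9, a subunit of the core particle, by 0.73 (limma adjusted p = 0.023). The probes of ubi4 gave 0.40 and 1.58. With a replicate block 13 of 35 were higher, against 901 of all genes.

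Some ribosomal protein genes were lower in the arrest. Of 126 genes 18 were lower and 0 higher, against 4.69% lower over all genes, 45 held and 63 were unresolved. In all, 123 of 126 had a negative difference, with a median of -0.57. The list mean was 0.86 at untreated 120 min, 0.50 at 160 min of HU and 0.11 at 200 min. At 160 min alone 1 gene was lower (1.64% of all genes) and at 200 min alone 35 (5.15% of all genes). Against late untreated cells 10 were lower and 1 higher, with a median of -0.35. rpl1603 read 0.39 and 0.13 untreated, -1.08 and -0.98 at 160 min, and -1.43 and -1.74 at 200 min, and its difference of -1.57 ± 0.14 (SE, limma adjusted p = 2.7e-05) stood apart from the next, rpl102 at -0.92. Only 1 of the 126 lay below all 6 start and untreated values, while the list mean at 0 min was -0.33, and 75 lay below the 5 untreated values (18.3% of all genes). The count of lower genes ran from 5 to 118 over the alternatives. It was 118 under the replicate block (924 of all genes) and 5 against untreated 80 min (343 of all genes). Many of these genes have nearly identical copies, and cross-hybridisation between copies was not tested.

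Of 63 ribosome biogenesis genes 9 were lower and 0 higher, against 4.69% and 3.81% of all genes, 60 had a negative difference, and the median was -0.31. rrp5 (-1.23) and utp21 (-1.12), both pre-rRNA processing factors, were the largest and were called under all 14 alternatives. rrp5 read 0.14 on both untreated arrays, -0.81 and -0.73 at 160 min of HU, and -1.33 and -1.46 at 200 min. With a replicate block 32 of 63 were lower (924 of all genes), and without replicate 2 there were 3 (143 of all genes). After quantile normalization there were 4 (129 of all genes), as with one probe per gene (134 of all genes).

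Lists of metabolism and transport held few or no calls. None was called among 23 redox defence genes, 14 iron uptake genes, 16 genes of iron-using proteins, 10 copper and zinc genes, 8 hexose transporters, 18 genes of glycolysis and fermentation and 4 phosphate genes, against 8.5% of all genes. Some were unresolved and not shown to be at the S phase level, such as gst2, a glutathione transferase gene, which read -0.12 and -0.10 untreated, 1.15 and 1.36 at 160 min and 2.56 and 2.67 at 200 min (difference 2.05, limma adjusted p = 0.077). The list of mating and meiosis genes had 2 of 34 higher, ste6 and the MAP kinase kinase gene byr1 (0.68), against 3.81% of all genes. That of nitrogen source uptake had 1 of 15 lower, put4 (-0.45), against 4.69%. Both counts are near the share over all genes.

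The later arrest was also compared with the earlier one, 1 condition against 1. Of 5015 genes tested 2 were higher at 200 than at 160 min and 0 lower (0.0399%, limma), with 332 at an unadjusted p under 0.05 and 257 called with a replicate block. One of the 2 calls is a probe without a gene name. The other, SPAC212.08C, differed by 1.60, but repeat 1 at 160 min has no value on either probe, so that side rests on 1 array (-1.98), against -0.15 and -0.60 at 200 min. None of the MBF targets or histones was called, and the medians of both lists lay within 0.1 of 0 (0.04 and 0.08). The median of the ribosomal proteins was -0.41 and that of the environmental stress genes 0.30, with 0 called in either list.

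The same difference was then taken in the rad3 and cds1 mutants, whose mutated genes encode the replication checkpoint kinases. For the MBF targets the list median of this difference, averaged over both HU times, was -0.52 in rad3 and -0.55 in cds1, against 0.63 in WT. The HU times were not alike in rad3, where the list mean was 0.67 at untreated 120 min, -0.42 at 160 min of HU and 0.82 at 200 min. In cds1 it was 0.36, -0.70 and -0.23, and in WT 0.52, 1.26 and 1.31, in the same order. Gene by gene the difference between strains was tested as the mean of rad3 and cds1 minus WT, which called 0 genes higher and 2 lower of 5009 (0.0399%, limma), with 485 at an unadjusted p under 0.05 and 999 called with a replicate block. None of the 18 MBF targets was called. Their median strain difference was -1.45, and cdt2 (-2.26) and cig2 (-2.33) came nearest, each with a limma adjusted p of 0.07.

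The 2 called genes were the translesion polymerase genes. For rev1 the strain difference was -2.00 (95% interval -2.46 to -1.53, limma adjusted p = 0.00071). WT went from -1.20 untreated to 1.30 and 1.28 under HU, rad3 from -0.002 to -0.53 and 0.53, and cds1 from -0.54 to 0.05 and 0.84. Part of the strain difference of rev1 lies in the untreated value, which was lowest in WT. For kpa1 the strain difference was -1.72 (95% interval -2.23 to -1.21, limma adjusted p = 0.007). WT went from 0.65 to 2.29 and 2.30, rad3 from 0.52 to -0.31 and -0.16, and cds1 from -0.003 to 0.25 and 0.96.

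For other groups of genes no strain difference was called. hsp16 was 3.27 higher in rad3 and 3.37 in cds1, against 4.35 in WT (strain difference limma adjusted p = 0.85). The median of the heat shock list was 0.42 in rad3 and 0.78 in cds1, that of the environmental stress list 0.79 and 0.83, and that of the ribosomal proteins -0.31 and -0.54. slp1 was -1.36 in cds1 and 0.14 in rad3, and eng1 -2.73 and -0.70, with strain differences that were not called (limma adjusted p = 0.27 and 0.33).

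**Figure D5:**
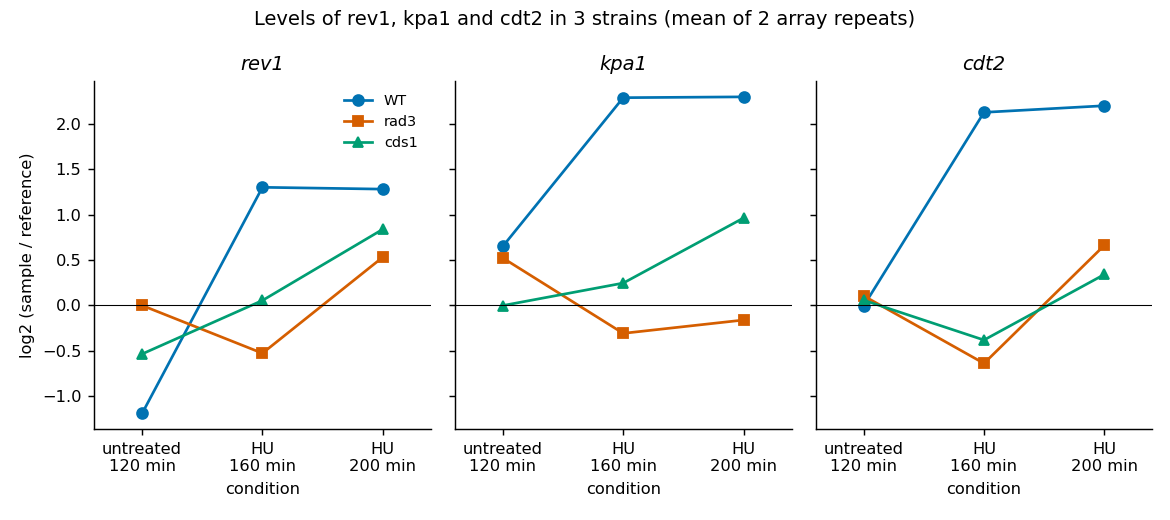
Log2 ratios (y axis, mean of 2 array repeats) of rev1, kpa1 and cdt2 at untreated 120 min, HU 160 min and HU 200 min (x axis) in WT (circles), rad3 (squares) and cds1 (triangles). In WT all 3 genes are higher at both HU times than untreated, and at both HU times WT is above both mutants.

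Read without the 200 min arrays, which match arrays labelled chk1, fewer genes were called, and not in every group. The untreated 120 min arrays also match arrays labelled chk1, and they remain the reference in this reading. At 160 min alone 3 of 18 MBF targets were higher, against 0.977% of all genes. Lower were 1 of 9 histones and 8 of 35 ring and septation genes, against 1.64% of all genes. hsp16 was the heat shock gene called. Only 1 of 126 ribosomal protein genes and 2 of 63 ribosome biogenesis genes were lower at 160 min alone (1.64% of all genes), and 1 of 35 environmental stress genes was higher (0.977% of all genes). Of the 24 highest and lowest genes 17 were called at 160 min alone and 23 at 200 min alone. With the matching arrays averaged in, 478 genes were called, 286 higher and 192 lower. Among these 5 of 18 MBF targets were higher, and 2 of 9 histones and 12 of 35 ring and septation genes were lower.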

How the data were processed

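Total RNA of 88 synchronous fission yeast samples was measured on 2-colour arrays, with the sample in Cy5 and the common reference in Cy3 per the labels. Each deposited value is a log2 ratio, sample over reference. This scale follows from the numbers themselves: in 99.678% of cells 2 to the power of the value gives a 3-decimal ratio (tolerance 0.01 of a thousandth). How the authors corrected background, normalized arrays or filtered spots is not given in the sources used here.

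Of 9858 probes, 9632 had 1 gene symbol in the platform annotation, 44 several and 182 no symbol. A RefSeq gene table (ASM294v3, names only) updated the symbols of 9582 probes. Probes with values on fewer than 80% of arrays were left out (35), and probes of a gene were averaged, giving 5015 units. The 2 repeats of each condition were then averaged.

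One limma fit (limma 3.58.1 in R 4.3.3, lmFit and eBayes, Benjamini-Hochberg over all genes) gave every comparison. Every HU condition, every untreated 120 min condition and WT untreated at 160 and 200 min had a coefficient of their own. The spread came from the other start and untreated conditions of all strains, modelled by strain and time (residual degrees of freedom 10, prior 5.31). It is therefore assumed that the HU and 120 min conditions vary like these. The conditions labelled chk1 that match WT arrays (untreated 120 min, HU at 120 and 200 min) were left out. The fit was also run on simulated data in which all conditions of a gene had the same spread. That run could not test whether the HU and 120 min conditions vary like the others. The number of arrays limits the precision.

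The 29 gene lists, the members and the tests were chosen with earlier results of these data known. Of 608 symbols written in the lists 39 were not found on the arrays. Named genes were the 12 highest and 12 lowest called genes with 1 name, up to 4 members of each list by absolute difference, the called genes of the other comparisons and a fixed set (rad3, cds1, chk1, S phase genes, hsp16, histones). Genes outside this rule are named as further called or held members of their lists, after their values were seen. The comparison with the range of all untreated values was added after the data were seen.

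Repeat numbers pair the arrays: deviations of the 2 repeats correlated between WT conditions at r = 0.436 to 0.807 (median 0.697, 55 pairs of conditions). Alternatives were each array as a sample with and without a replicate block, each repeat left out, quantile and median scaling, matching arrays averaged in, other sources of spread, no filter, one probe per gene, and untreated 80 min as a reference. A planned search for promoter motifs was not run, since it needs sequences not used here.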

Additional observations from a re-analysis of the deposited data

Results flagged for a closer look

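The difference between HU 160 and 200 min and untreated 120 min was not the same in the checkpoint mutants as in WT for 2 genes. The strain term of the limma fit (mean of rad3 and cds1 minus WT) was -2.00 for rev1 and -1.72 for kpa1. Both are translesion polymerase genes, and both were called in WT under every alternative. In WT the HU arrays, technical repeats of 2 conditions, all exceeded both untreated arrays for each gene. Both genes were called on these same arrays, and 364 of 403 called genes with 1 name had arrays that did not overlap. The strain term rests on 1 culture per strain. Its WT side uses the untreated 120 min and HU 200 min arrays, which match arrays labelled chk1. After quantile normalization only 1 of the 2 strain terms was called.

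SPAC212.08C was 1.60 higher at 200 min of HU than at 160 min. Its first probe read -1.86 on the only measured array of 160 min, against 0.04 and -0.67 at 200 min. Its second probe read -2.10 there, against -0.34 and -0.53. The value at 160 min rests on 1 array, and without replicate 2 it could not be computed.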

How the results depend on the processing

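The comparison of HU 160 and 200 min with untreated 120 min called 426 genes. It called 692 with each array as a sample and no replicate block, 1825 with the replicate block, 225 after quantile normalization, 255 with one probe per gene, 895 against untreated 80 and 120 min, 678 against untreated 80 min, and 131 without HU 200 min. Leaving out a repeat gave 275 to 387. With matching arrays labelled chk1 averaged in the count was 478, but 59.8% of the calls were higher against 44.8% otherwise. For HU 160 min alone the counts were 131, 320 without and 1213 with the block, 53 after quantile normalization, and 78 to 163 without a repeat. For HU 200 min alone they were 444, 669, 1850, 221, and 209 to 479. For HU 200 against 160 min they were 2, 10, 257, 0 after quantile normalization (limma, 181 at an unadjusted p under 0.05), and 0 to 16. Against late untreated cells 490 genes were called, 1761 with the block and 309 to 517 without a repeat. For the mutants minus WT the counts were 2, 402, 999, 1, and 2 to 11. The block treats technical repeats as samples, so its larger counts measure array error only. The causes of the other shifts were not tested.

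Of the 137 named genes none reversed except under another reference. Against untreated 80 and 120 min hhf2 was 0.055, hht1 0.80 and hta1 1.04. Against untreated 80 min the histones hhf1 (2.58), hhf2 (1.31), hhf3 (2.50), hht1 (2.11), hht2 (0.24), hht3 (1.51), hta1 (2.45) and hta2 (2.38) turned positive, as did spd1 (0.14), while ark1 (-0.40) and cdc25 (-0.45) turned negative. Untreated 80 min precedes the histone peak, so this alternative asks about another stage. Of 56 named called genes 23 were called under all 14 alternatives. Among the 24 highest and lowest genes this held for 14.

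With a limit of 0.5 in place of 1 log2 unit, 1543 genes held in place of 4123. Without 0 min, 890 genes lay above and 917 below all untreated values, in place of 499 and 450.

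All samples of a strain and treatment come from 1 culture, so culture and condition cannot be told apart, and the spread is borrowed from untreated conditions. Genes that depart from the strain and time terms in those conditions have wide intervals. In all 465 genes were unresolved, among them 63 ribosomal protein genes, 8 MBF targets and 6 core histones.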

Other observations

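The genes below were chosen after their values were seen. The 4 genes lay below all 6 start and untreated values in the arrest, as did 8.98% of all genes. rpb1, the largest subunit of RNA polymerase II, read -0.09 and 0.05 untreated, -1.10 and -0.90 at 160 min of HU, and -1.36 and -1.34 at 200 min, with no overlap. Its difference was -1.15 ± 0.13 (SE, limma adjusted p = 0.00017). The deadenylase gene ccr4 (-1.27), the helicase gene sum3 (-1.14) and tyw1 (-1.58), a gene of tRNA wybutosine synthesis, were lower too. Each of the 4 was also lower in both rad3 and cds1, by -0.36 and -0.84 for rpb1, -0.77 and -1.18 for ccr4, -1.04 and -1.35 for sum3, and -0.91 and -1.23 for tyw1, in that order.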
